A study of Mus musculus with 4 samples.

Results

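Acyl-CoA thioesterases are described here through 7 genes, Acot1, Acot2, Acot3, Acot4, Acot8, Acot12 and Acot13, chosen by name from the 54532 genes of a count table of mouse liver messenger RNA. The study sequenced livers of C57BL/6 mice, a common inbred strain. The labels name 2 livers HFD, a usual short form of high-fat diet, and 2 livers HFD+I3A, called I3A here, without spelling out what I3A is. HFD is therefore common to all 4 livers and only I3A differs. The sources used here state no age, sex, dose or duration, and livers without HFD were not analysed here, so each value is set against HFD alone. According to the title, the series concerns hepatic mitochondrial respiration in NAFLD, non-alcoholic fatty liver disease.

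Thioesterases of this family split an acyl-CoA into a free fatty acid and coenzyme A, the reverse of the step catalysed by acyl-CoA synthetases. They thereby set how much activated fatty acid a compartment holds for oxidation, export or lipid synthesis, and how much free coenzyme A it has. Several of the liver genes are known targets of PPARalpha, the nuclear receptor that fatty acids activate. Acot1 and Acot12 act in the cytosol, on long-chain acyl-CoA and on acetyl-CoA respectively. Acot2 is the long-chain enzyme of the mitochondrial matrix, and Acot13, also called Them2, is associated with mitochondria and found in the cytosol as well. Acot3, Acot4 and Acot8 are peroxisomal: Acot3 cleaves long-chain acyl-CoA, mouse Acot4 cleaves CoA esters of dicarboxylic acids such as succinyl-CoA, and Acot8 accepts a wide range including bile acid CoA esters.

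Acot1 to Acot6 lie side by side on the plus strand of chromosome 12 (GRCm38), in the order Acot2 (83987861 to 83993873), Acot1 (84009490 to 84018371), Acot4 (84038379 to 84048601), Acot3 (84052144 to 84060402), Acot5 (84069325 to 84076020) and Acot6 (84100654 to 84111349). Acot8 lies on chromosome 2 (164792765 to 164804882, minus strand). Acot12 (91741512 to 91786148, plus strand) and Acot13 (24817948 to 24831540, minus strand) lie on chromosome 13. Within the cluster the coding sequences resemble each other closely. Those of Acot1 and Acot2 were identical at 1181 of 1236 aligned bases (95.6%), with one identical run of 273 bases, and those of Acot1 and Acot4 at 74.8%. The last 60 aligned coding bases of Acot1 and Acot2 are shown to make this visible, with the 5 differing bases in capitals (coding positions 1177 to 1236 of Acot1 and 1300 to 1359 of Acot2).
Acot1: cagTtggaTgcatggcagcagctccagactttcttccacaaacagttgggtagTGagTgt
Acot2: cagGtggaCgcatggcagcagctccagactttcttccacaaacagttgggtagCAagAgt
Of all 100-base windows in the Acot1 transcript, 21.9% occurred unchanged in a transcript of another gene, mostly Acot2. The share was 17.1% for Acot2, 14.3% for Acot3 and 0.36% for Acot4, and 0% for Acot8, Acot12 and Acot13. For Acot3 the main partner was Gm49366 (9.9% of its windows), a gene that overlaps it on its own strand and had 0 counts. The sources used here do not say how reads matching several genes were counted, so the split of counts between Acot1 and Acot2, and that of Acot3, are uncertain to that extent.

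The classical import signal of peroxisomal proteins is encoded at the very end of the coding sequence. The last 30 coding bases before the stop codon are given for the 3 peroxisomal enzymes, and for comparison for mitochondrial Acot2 and cytosolic Acot12, with the final 3 codons in capitals.
Acot3: ggcaaaaagaagacaatcccaGCAAAACTG
Acot4: agtacccacagcagagcctccTGTAGACTG
Acot8: ttgaagcctcaggtgtcagagAGTAAGCTA
Acot2: ttcttccacaaacagttgggtAGCAAGAGT
Acot12: gctactcctgatggacttaaaAGTGTGTTA

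The 4 libraries held between 15005668 and 18255623 counts, so that 1 count was worth 0.0581 to 0.0651 CPM, the unit used below: counts scaled to a common library size with TMM factors. Library HFD 335 stood apart by transcripts of other tissues. Its 11 skeletal muscle markers summed to 996 CPM of the library total against 0.876 to 1.02 CPM in the other 3. Exocrine pancreas markers summed to 172 against 12.1 to 25.5 CPM, smooth muscle and mesothelium markers to 162 against 4.11 to 5.93 CPM, and adipocyte markers to 31.0 against 7.53 to 11.5 CPM. Library I3A 305 was low in the 5 markers of sinusoidal endothelium (46.6 CPM, against 124 in I3A 303 and 148 and 210 in the HFD libraries). Kupffer cell markers ranged from 86.3 to 120 CPM, neutrophil markers from 0.128 to 0.69 CPM and kidney tubule markers from 0 to 0.0639 CPM. The 7 hepatocyte markers summed to between 83288 and 89669 CPM, so the tissue label held in each library. In bulk liver fewer cells of a type and less RNA per cell cannot be told apart.

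All 7 genes were measured in every library and all passed the filter on low counts. Levels between genes were compared per length, as CPM per kilobase of the gene length in the deposited table. In HFD livers Acot12 was the most abundant (47.4 ± 1.48 CPM per kb, SD, n = 2), followed by Acot1 (43.9 ± 0.6) and Acot13 (39.7 ± 4.36). The 3 genes kept this order in both HFD libraries, and the distance from Acot1 to Acot13 was within the SD of Acot13. Acot8 (12.5 ± 0.983 CPM per kb) and Acot4 (8.85 ± 0.446) came next, then Acot2 (6.63 ± 0.237) and Acot3 (1.43 ± 0.149), each apart from its neighbours in both HFD libraries. In I3A livers Acot12 was followed by Acot13 (38.5 ± 1.56 CPM per kb) and then Acot1 (24.4 ± 10.2). The place of Acot1 depended on the length used. With the length of the transcript that has the longest coding part (2272 in place of 3919 bases), Acot1 was the most abundant in HFD livers (75.7 ± 1.03 CPM per kb, beside 51.0 ± 1.59 for Acot12) and second in I3A livers (42.1 ± 17.6 beside 59.2 ± 0.545).

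Acot1, the cytosolic long-chain enzyme, showed the largest difference of the 7. It measured 174 and 170 CPM in the HFD libraries 334 and 335, and 124 and 67.3 CPM in the I3A libraries 303 and 305. Both I3A livers lay below both HFD livers, and the I3A livers lay further apart than the HFD livers. The summed sinusoidal endothelial markers had the same order of groups (148 and 210 CPM in HFD, 124 and 46.6 CPM in I3A). Singly, Clec4g, Fcgr2b and Kdr had this order, while Stab2 and Lyve1 overlapped between the groups. Stab2 had 455 counts in HFD 334 and 532 in I3A 303, and Lyve1 75 and 113. The part of these markers in the result was not tested. The group means of Acot1 were 172 ± 2.35 and 95.7 ± 40.1 CPM (SD, n = 2), 44.3% lower in I3A (log2 fold change -0.85 ± 0.28, SE). This did not pass edgeR's quasi-likelihood test over all genes (adjusted p = 0.332), while DESeq2 called it (adjusted p = 0.0470). The size of the difference turned on the I3A library used: the log2 fold change was -1.33 without I3A 303 (edgeR adjusted p = 0.0474) and -0.47 without I3A 305 (edgeR adjusted p = 0.634). Without HFD 335, the library with muscle and pancreas transcripts, it was -0.86 (edgeR adjusted p = 0.439). With the counts of Acot1 and Acot2 added into 1 gene, the log2 fold change was -0.80 (edgeR adjusted p = 0.353), and with those of Acot1 to Acot6 added it was -0.64 (edgeR adjusted p = 0.388).

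Acot12, the cytosolic enzyme that hydrolyses acetyl-CoA, lay on the other side. It measured 153 and 159 CPM in the HFD libraries and 180 and 182 CPM in the I3A libraries. The groups did not overlap and both were tight, with means of 156 ± 4.88 and 181 ± 1.67 CPM (SD, n = 2). The difference of 16.1% (log2 fold change 0.21 ± 0.090, SE) did not pass the edgeR test (adjusted p = 0.402) and ranged from 0.20 to 0.25 with single libraries left out. It was 0.12 when libraries were scaled by their totals alone. For the cytosolic pair, there were 1.14 and 1.07 counts of Acot1 per count of Acot12 in the HFD livers, and 0.69 and 0.37 in the I3A livers 303 and 305.

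**Figure D1:**
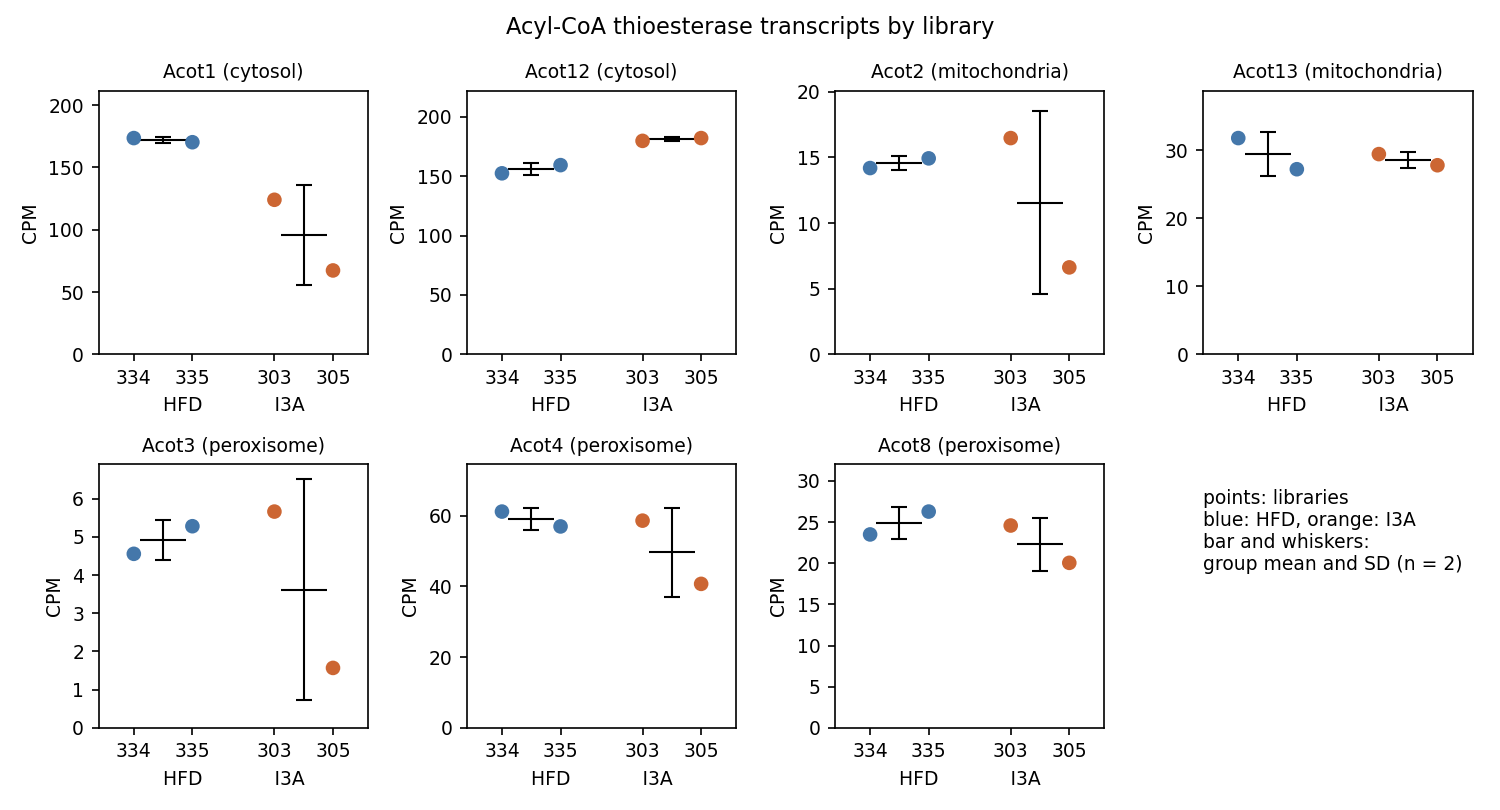
CPM (y axis, from 0) of the 7 thioesterase genes in the HFD libraries 334 and 335 (blue) and the I3A libraries 303 and 305 (orange), with group mean and SD (n = 2) in black. Acot1 is at 124 and 67.3 CPM in the I3A libraries, below both HFD libraries, Acot12 is above both, and the other 5 genes overlap.

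The mitochondrial pair overlapped between the groups. Acot2 measured 14.2 and 14.9 CPM in the HFD libraries, and 16.5 and 6.62 CPM in the I3A libraries 303 and 305. One I3A liver thus stood above both HFD livers and the other below them (log2 fold change -0.34 ± 0.41, SE; edgeR adjusted p = 0.767). Without I3A 305 the value turned positive (0.17), and without I3A 303 it was -1.12. Acot13 was level across the libraries, at 31.8 and 27.2 CPM in HFD and 29.5 and 27.8 CPM in I3A (log2 fold change -0.044 ± 0.13, SE; edgeR adjusted p = 0.910). Pctp, the phosphatidylcholine transfer protein that binds Acot13, measured 167 and 170 CPM in HFD and 215 and 135 CPM in I3A (log2 fold change 0.054 ± 0.22; edgeR adjusted p = 0.940). Its sign turned with scaling by library totals (-0.028).

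Among the peroxisomal members, the groups overlapped in each. Acot4, the dicarboxylyl-CoA enzyme, measured 61.2 and 57.0 CPM in HFD, and 58.6 and 40.7 CPM in the I3A libraries 303 and 305 (log2 fold change -0.25 ± 0.18, SE; edgeR adjusted p = 0.602). It was -0.52 without I3A 303 and -0.014 without I3A 305. Acot3 was the scarcest, at 4.56 and 5.28 CPM (70 and 87 counts) in HFD, and 5.66 and 1.57 CPM (88 and 27 counts) in I3A. Here again I3A 303 was the highest library and I3A 305 the lowest (log2 fold change -0.45 ± 0.58, SE; edgeR adjusted p = 0.782), and the value without I3A 305 was 0.20. Acot8 measured 23.5 and 26.3 CPM in HFD and 24.6 and 20.0 CPM in I3A (log2 fold change -0.16 ± 0.15, SE; edgeR adjusted p = 0.692), and the value was -0.021 without I3A 305. Exons of Acot3 share 312 bases, and those of Acot4 615 bases, with the antisense gene 4732463B04Rik, to which 48 (HFD 334), 24 (HFD 335), 43 (I3A 303) and 15 counts (I3A 305) were assigned, and exons of Acot8 share 246 bases with Snx21 on the other strand (160 to 178 counts). Acot3 also shares 396 exon bases with Gm49366 on its own strand, which had 0 counts. The library kit is not stated to mark strand, so reads in these stretches cannot be assigned with certainty.

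Summed by site as CPM per kb, the cytosolic pair gave 90.6 and 91.9 in the HFD libraries, and 86.3 and 72.5 in I3A 303 and I3A 305. The mitochondrial pair gave 49.2 and 43.4 in HFD, and 47.1 and 40.4 in I3A, and the peroxisomal 3 gave 22.3 and 23.2 in HFD, and 22.7 and 16.6 in I3A. The cytosolic sum was lower in both I3A livers, with Acot12 offsetting part of the lower Acot1, and the other sums overlapped. As shares of the 7 genes together, the cytosol held 55.3% to 58.0% of the thioesterase level per length, mitochondria 27.4% to 31.2% and peroxisomes 12.8% to 14.7% over the 4 libraries. The mitochondrial share rests mainly on Acot13, which is found in the cytosol as well. By the mean over the libraries, Acot13 held 25.8% of the level of the 7 genes and Acot2 3.92%. With these deposited gene lengths the groups overlapped in each share. That depended on the length used. With the transcript lengths described above, Acot1 weighed more (76.4 and 74.9 CPM per kb in HFD, 54.6 and 29.6 in I3A). The cytosolic share was then lower and the mitochondrial share higher in both I3A livers, and the peroxisomal share overlapped.

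**Figure D2:**
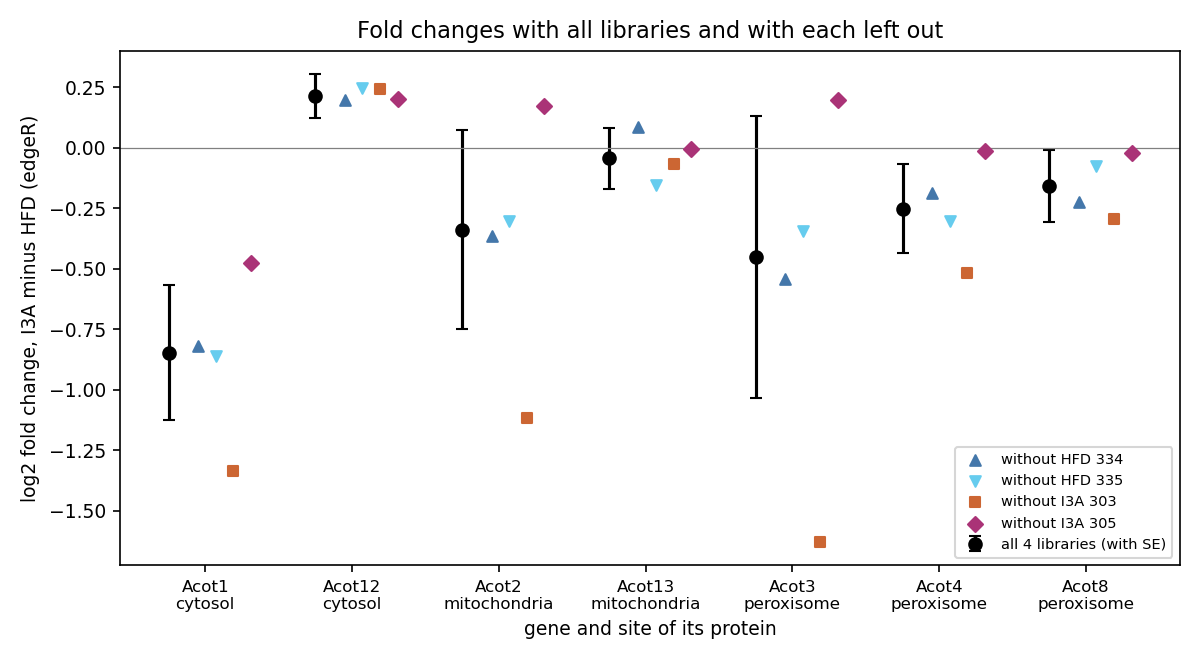
Log2 fold change of I3A against HFD (y axis, edgeR) for the 7 genes, ordered by the site of their protein, with all 4 libraries (black, SE) and with each library left out (coloured). Acot1 stays below 0 and Acot12 above 0 in each setting drawn, while Acot2 and Acot3 lie above 0 without I3A 305 and at -1.12 and -1.63 without I3A 303.

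Over the 7 genes, edgeR called 0 at an adjusted p of 0.05, where it called 0 of all 13403 tested genes (0%). At an unadjusted p under 0.05 stood 1 of the 7, Acot1, beside 12.9% of all tested genes. DESeq2 called Acot1 as lower and none of the other 6, beside 3.34% of the 10025 genes to which it gave an adjusted p (1.54% lower), and limma-voom called 0. HFD and I3A values were fully separate in 2 of the 7, Acot1 and Acot12, beside 45.5% of all tested genes. The log2 fold change was negative in 6 of the 7, beside 51.5% of all tested genes. With 7 genes, these counts do not set the family apart from the background. The median log2 fold change was -0.25 over the 7 genes and -0.010 over all tested genes. Without I3A 305 the median of the 7 was -0.006, and without I3A 303 it was -0.52.

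Acot1 to Acot4 on chromosome 12 were all lowest in I3A 305, as was Acot8 on chromosome 2, and the remaining 3 libraries lay close together for Acot2, Acot3 and Acot4. From I3A 303 to I3A 305 the CPM differed 3.61-fold for Acot3, 2.49-fold for Acot2, 1.84-fold for Acot1 and 1.44-fold for Acot4. Of all tested genes, 6.51% were more than 2-fold lower in I3A 305 than in I3A 303, as Acot2 and Acot3 were. Acot6 of the same cluster did not share this: it measured 0.846 and 1.40 CPM in HFD, and 0.965 and 1.16 CPM in I3A 303 and I3A 305, from 13 to 23 counts a library. Acot8 was 1.23-fold lower in I3A 305, Acot13 was 1.06-fold lower, and Acot12 was level. The sinusoidal endothelial markers were likewise lowest in I3A 305, as given above. Acot4, which shared 0.36% of its 100-base windows with other genes, differed least of the 4. Acot1, which shared the most (21.9%), differed less than Acot2 (17.1%) and Acot3 (14.3%). What shared reads contributed to the low values in I3A 305 was not tested.

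**Figure D3:**
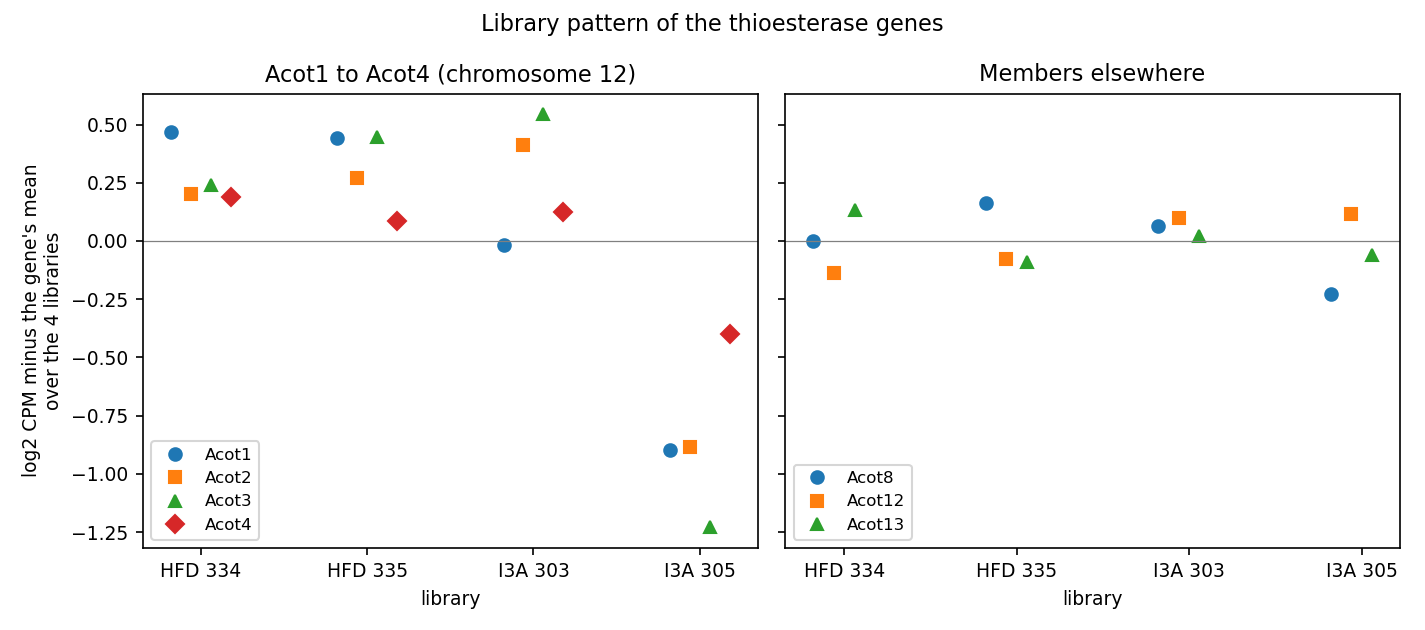
Log2 CPM of each gene minus its mean over the 4 libraries (y axis), for Acot1 to Acot4 on chromosome 12 (left) and the 3 members elsewhere (right), by library (x axis). These 4 genes are lowest in I3A 305, at -0.90 (Acot1), -0.89 (Acot2), -1.23 (Acot3) and -0.40 (Acot4), and the genes on the right stay between -0.23 and 0.16.

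The upstream sequence of Acot1, with the largest difference between the groups, is shown beside that of Acot4, whose window alone held the looser match described below. Acot4 differed least of Acot1 to Acot4 from I3A 303 to I3A 305 (1.44-fold). Acot2 (2.49-fold) and Acot3 (3.61-fold) differed more and held no such match. Both windows are the 250 bases before the RefSeq start site (GRCm38.p6, plus strand), Acot1 at chr12:84009252-84009501 and Acot4 at chr12:84038129-84038378. The first reaches a few bases into the gene as the deposited table bounds it, and the second ends just before the gene. Capitals mark CCAAT or its complement and, at the end of the Acot4 window, a match to a direct repeat of the kind that PPARalpha and HNF4alpha bind.
Acot1: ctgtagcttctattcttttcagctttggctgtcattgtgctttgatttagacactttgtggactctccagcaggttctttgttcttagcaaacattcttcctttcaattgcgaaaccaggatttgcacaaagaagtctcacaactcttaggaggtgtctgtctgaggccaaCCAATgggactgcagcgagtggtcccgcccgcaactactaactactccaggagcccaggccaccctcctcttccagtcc
Acot4: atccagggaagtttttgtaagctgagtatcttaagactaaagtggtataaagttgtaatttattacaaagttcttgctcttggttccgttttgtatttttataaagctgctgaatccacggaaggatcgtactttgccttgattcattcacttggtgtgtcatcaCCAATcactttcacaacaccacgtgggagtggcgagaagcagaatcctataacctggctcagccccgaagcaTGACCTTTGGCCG
RefSeq windows were found for 6 of the 7 genes. The full repeat, 2 copies of AGGTCA with 1 base of any kind between them, searched on both strands, was in none of these 6 genes' windows and in 0.0335% of all 32851 windows. A looser form with NGGNCA as its first copy, of which the full repeat is a case and which was chosen after the sequences were seen, was found in Acot4 alone of the 6 (on the minus strand, as TGACCTTTGGCCG) and in 0.17% of all windows. CCAAT on either strand was in the windows of Acot1, Acot2, Acot3, Acot4 and Acot8 and in 33.8% of all windows. A match is a description of the letters only.

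By likeness of pattern over the 4 libraries, measured as the root mean square distance between log2 CPM values centred on each gene's mean, the genes nearest to Acot1 were Apol9a (distance 0.018), Slco1a1 (0.047) and Ifit3b (0.057). Slco1a1, an organic anion uptake transporter of hepatocytes, measured 617 and 560 CPM in HFD, and 442 and 238 CPM in I3A 303 and I3A 305. Within a distance of 0.1 of Acot1 lay 5 genes. Acot12 had 1505 genes within that distance, the nearest being Setd3 (0.0083), Slk (0.012) and Polg (0.012). The distance is not scaled by how much a gene differs between libraries. The centred values of Acot12 lay between -0.14 and 0.12, so any gene that differs little lies near it. For Acot1 they ran from -0.90 to 0.47. The counts of near genes therefore do not show how common either pattern was.

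Of 10 further Acot and Them genes, 7 passed the filter on low counts. By the deposited gene lengths, Them7 (17.7 CPM per kb over the 4 libraries) stood above Acot8 (11.8) and Acot4 (8.15). With its transcript length (1152 in place of 1997 bases), Acot8 stood at 21.6 CPM per kb in HFD and 19.4 in I3A. Them7 was not compared by that length, so its place beside Acot8 is not settled. Acot5 and Acot10 had 0 counts in each library, where 0 allows up to 0.195 CPM, and Acot6 stood just above the filter. Them5 had at most 5 counts in a library and was not tested. Acot11, an enzyme known from brown fat, measured 4.56 and 3.94 CPM in HFD and 2.64 and 1.68 CPM in I3A, below both HFD libraries (log2 fold change -0.98 ± 0.35, SE; edgeR adjusted p = 0.351). Acot7, a cytosolic enzyme known from brain, averaged 14.9 ± 0.147 CPM in HFD and 12.1 ± 0.725 CPM in I3A (SD, n = 2; edgeR adjusted p = 0.446). Them7 was higher in both I3A livers, at 23.2 and 20.7 CPM in HFD and 35.4 and 31.0 CPM in I3A (log2 fold change 0.60 ± 0.13, SE; edgeR adjusted p = 0.235). Acot9 (log2 fold change -0.39 ± 0.44, SE), Them4 (0.19 ± 0.13) and Them6 (0.22 ± 0.35) had edgeR adjusted p between 0.570 and 0.828. Baat, which joins bile acids to taurine or glycine and belongs to the same protein family as Acot1, was chosen after its values were seen. It and Acot11 were the genes of the list of other thioesterases at an unadjusted p under 0.05, a level that Them7, which this list does not hold, also passed. It measured 230 and 229 CPM in HFD and 284 and 324 CPM in I3A (log2 fold change 0.40 ± 0.11, SE; edgeR adjusted p = 0.278).

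The lists of genes around thioesterase action held 128 tested genes, of which edgeR called 0 and limma-voom 0 at an adjusted p of 0.05. DESeq2 called 7 of them, beside 3.34% of the 10025 genes to which it gave an adjusted p. At an unadjusted p under 0.05 stood 13 higher and 9 lower genes, beside 6.66% higher and 6.24% lower among all tested genes. Of the acyl-CoA synthetases, which run the opposite reaction, 2 of 16 were higher and 1 lower at that level. Acsl1, the main long-chain synthetase of liver, measured 2550 and 2590 CPM in HFD and 2164 and 1896 CPM in I3A (log2 fold change -0.34 ± 0.13, SE; edgeR adjusted p = 0.366). Acsl4, which prefers arachidonic acid, measured 36.2 and 49.0 CPM in HFD and 66.9 and 81.0 CPM in I3A (log2 fold change 0.80 ± 0.18, SE; edgeR adjusted p = 0.238; DESeq2 adjusted p = 0.0140), and Acss2, the cytosolic acetyl-CoA synthetase, 42.8 and 50.7 CPM in HFD and 72.0 and 63.1 CPM in I3A (edgeR adjusted p = 0.252). Acetate activation by Acss2 and acetyl-CoA hydrolysis by Acot12 are opposite reactions. Transcripts of both were higher in both I3A livers, as were 23.1% of all tested genes, and neither passed the edgeR test. Acss2 was named for its small p within its list, and a link between the 2 genes was not tested.

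Of the nudix hydrolases, which cut coenzyme A itself, the peroxisomal Nudt7 was lower in both I3A livers, at 745 and 507 CPM in HFD and 374 and 403 CPM in I3A (log2 fold change -0.69 ± 0.20, SE; edgeR adjusted p = 0.300; DESeq2 adjusted p = 0.0232). That of Nudt7 was -0.37 without HFD 334. Nudt19 was level at 22.6 to 28.1 CPM. Of 10 genes of coenzyme A synthesis and recycling, 0 stood at an unadjusted p under 0.05 in edgeR, and DESeq2 called 0. Vnn1, the pantetheinase that returns coenzyme A breakdown products to synthesis and a known PPARalpha target, was nearest to it, at 248 and 207 CPM in HFD, and 176 and 84.7 CPM in I3A 303 and I3A 305 (log2 fold change -0.80 ± 0.34, SE; edgeR adjusted p = 0.403). As for Acot1, both I3A livers lay below both HFD livers and I3A 305 was the lowest. The log2 fold change of Vnn1 was -1.41 without I3A 303 and -0.37 without I3A 305.

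Of peroxisomal beta-oxidation 2 of 18 genes were higher at an unadjusted p under 0.05 and 0 lower. Of these, Crot, which exports peroxisomal acyl groups as carnitine esters and so competes with the peroxisomal thioesterases for substrate, measured 1016 and 1175 CPM in HFD and 1547 and 1415 CPM in I3A (log2 fold change 0.44 ± 0.13, SE; edgeR adjusted p = 0.311). Of mitochondrial beta-oxidation 2 of 18 were higher and 0 lower: Cpt1a, the gate of fatty acid entry into mitochondria (log2 fold change 0.41 ± 0.12, SE; edgeR adjusted p = 0.300), and Echs1 (0.24 ± 0.090; edgeR adjusted p = 0.365). The medians of the 2 oxidation lists were 0.033 and -0.014, close to that of all tested genes.

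Among known targets of PPARalpha, 4 of 28 tested genes were higher and 4 lower at an unadjusted p under 0.05, with a median log2 fold change of -0.019. The fatty acid omega-hydroxylases Cyp4a14 (1671 and 2266 CPM in HFD, 4307 and 3459 CPM in I3A) and Cyp4a32 (51.6 and 58.8 CPM in HFD, 101 and 112 CPM in I3A) were higher in both I3A livers, with edgeR adjusted p of 0.218 and 0.145. The fatty acid transporter Cd36 was lower, at 45.4 and 65.6 CPM in HFD and 21.6 and 22.8 CPM in I3A (edgeR adjusted p = 0.158). DESeq2 called Cyp4a14, Cyp4a32 and Cd36 of the 28, beside 3.34% of all genes to which it gave an adjusted p. Of the 28, 6 were higher and 8 lower in both I3A livers than in both HFD livers, beside 23.1% and 22.5% of all tested genes. Acot1, Vnn1 and Cd36 were lower in this way and these 2 Cyp4a genes higher. Other targets lay on either side as well, among them Pdk4 and Mgll (lower) and Cidec (higher). Ppara itself measured 179 and 145 CPM in HFD and 159 and 144 CPM in I3A (log2 fold change -0.099 ± 0.13, SE; edgeR adjusted p = 0.790). Ppargc1a, a coactivator of PPARalpha, measured 6.83 and 9.10 CPM in HFD and 16.9 and 16.5 CPM in I3A (log2 fold change 1.07 ± 0.19, SE; edgeR adjusted p = 0.200; DESeq2 adjusted p = 0.01). Between the I3A livers, 23 of 28 PPARalpha targets and 15 of 18 peroxisomal beta-oxidation genes were lower in I3A 305 than in I3A 303, as were 6 of the 7 thioesterase genes, beside 50.3% of tested genes. Other lists had 8 of 10 genes of coenzyme A synthesis, 11 of 14 of dicarboxylic acid handling, 11 of 14 of acetyl-CoA handling, 12 of 16 synthetases, 9 of 12 regulators and 12 of 18 of mitochondrial beta-oxidation lower in I3A 305, while other thioesterases had 6 of 11 lower and the nudix hydrolases 0 of 2.

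**Figure D4:**
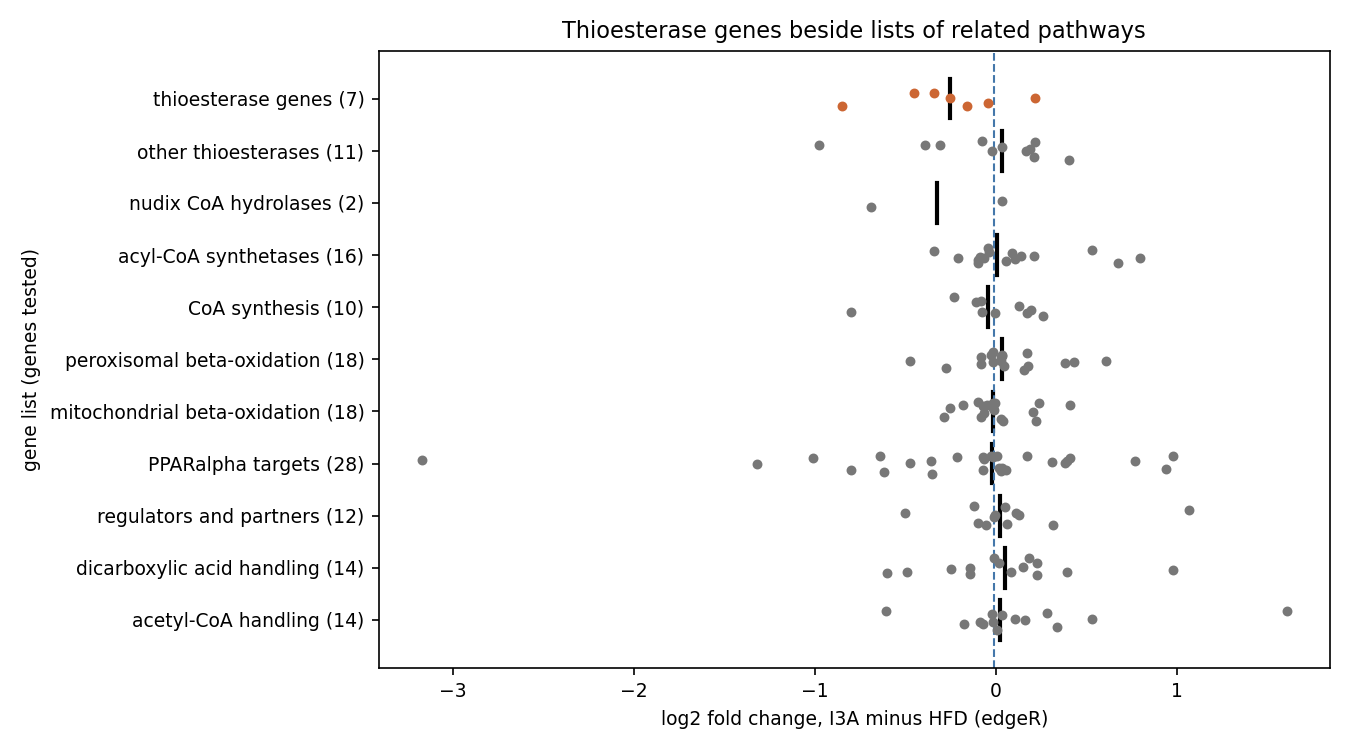
Log2 fold change of I3A against HFD (x axis, edgeR) for each tested gene (points) of the thioesterase genes (orange) and of related lists (grey), with the list medians (black bars) and the median of all tested genes (dashed). The thioesterase median is at -0.25, and those of the 2 beta-oxidation lists and the PPARalpha targets lie within 0.05 of 0.

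Genes that handle the substrates of Acot4 and Acot12 were mixed. Of 14 tested genes of dicarboxylic acid handling, 2 were higher and 1 lower at an unadjusted p under 0.05. Cyp4f14, an omega-hydroxylase, measured 131 and 116 CPM in HFD and 83.1 and 79.6 CPM in I3A (log2 fold change -0.60 ± 0.10, SE; edgeR adjusted p = 0.184; DESeq2 adjusted p = 0.00349). Sucla2, a subunit of succinyl-CoA ligase, measured 133 and 131 CPM in HFD and 154 and 156 CPM in I3A (edgeR adjusted p = 0.371). Of 14 tested genes of acetyl-CoA handling, 2 were higher and 1 lower. Hmgcs1, which draws acetyl-CoA into cholesterol synthesis, measured 46.7 and 78.6 CPM in HFD and 259 and 124 CPM in I3A (edgeR adjusted p = 0.261). Acaca, which carboxylates acetyl-CoA for fatty acid synthesis, measured 80.4 and 54.4 CPM in HFD and 48.7 and 40.0 CPM in I3A (edgeR adjusted p = 0.343). Without HFD 334 the log2 fold change of Acaca was -0.28, beside -0.60 with all libraries, and without I3A 303 that of Hmgcs1 was 0.995, beside 1.61.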

How the data were processed

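RNA of 4 livers was sequenced, 2 labelled HFD and 2 labelled HFD+I3A. The authors deposited 1 table of raw, unscaled counts, made with HISAT2 and featureCounts 1.5.0-p3 on GRCm38, per the submitters' processing notes; these do not state the annotation release, the strand setting or the treatment of reads matching several genes. Gene length is the deposited table's own value; for the 7 members it equals the merged exons in GENCODE M21.

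Counts were tested with edgeR 4.0.16 (R 4.3.3): filterByExpr with a minimum of 10 counts, TMM scaling, a quasi-likelihood fit with group as its only term, 2-sided tests and Benjamini-Hochberg adjustment over 13403 genes at 0.05. An SE is the fold change divided by the root of its F statistic. CPM use TMM-scaled library sizes, except marker sums, which use library totals. An exact permutation test of 2 against 2 cannot go below p = 0.333. The labels do not say that libraries come from separate animals, so p-values measure the spread between these libraries. Limits for counts of 0 use 3 counts and cover counting error only.

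Alternatives were other scalings and filters, DESeq2 1.42.0, limma-voom (limma 3.58.1), a robust fit, each library left out (a lone library is then assumed to vary like the other group), and summed paralogs. The tests were checked on simulated data. The members and the gene lists were chosen with earlier results of these data known, and lists were described, not tested. Named genes were all Acot and Them genes, the 3 genes of smallest unadjusted p in each list that no earlier list held, Ppara, Ppargc1a, Pctp, and the 3 genes nearest in pattern to the member of smallest p and to the most abundant one; not all are described, and 1 gene is not reported here. Transcripts came from GENCODE M21, where all 7 IDs were found, and promoters from RefSeq (GRCm38.p6).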

Additional observations from a re-analysis of the deposited data

How the results depend on the processing

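No paired analysis was possible because the groups share no replicate numbers. The number of genes that edgeR called, 0 with all libraries, was 619 without a filter on low counts and 335 with DESeq2, and it ranged from 0 to 343 with single libraries left out. Among the 7 thioesterase genes it was 1 without a filter and 1 with DESeq2, Acot1 each time, and 0 to 1 with libraries left out. Among the list genes it was 11 without a filter, 7 with DESeq2 and 0 to 2 with libraries left out. Scaling by library totals alone turned the genes at an unadjusted p under 0.05 from 892 higher and 837 lower to 578 higher and 1329 lower. It gave Nudt19 a log2 fold change of -0.054 and Pctp one of -0.028, both positive otherwise with all libraries. With single libraries left out, log2 fold changes changed sign for Acot2 (-1.12 to 0.17), Acot3 (-1.63 to 0.20), Acot13 (-0.15 to 0.085), Acot6 (-0.37 to 0.33), Acot9 (-0.77 to 0.16), Them6 (-0.018 to 0.53), Nudt19 (-0.11 to 0.21), Nr1i3 (-0.090 to 0.64), Ppara (-0.24 to 0.073) and Pctp (-0.30 to 0.35). The cause was not tested. Acot1 stayed negative and Acot12 positive in each alternative run. With 2 libraries a group, differences of the size seen in Acot4, Acot8 and Acot13 could not be told from the spread. The values of Acot3 rest on only 27 to 88 counts a library.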
